A study of Mus musculus with 12 samples.

Results

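The libraries compared here were made from PB3 mouse breast cancer cells selected for resistance to eribulin and from the parental PB3 cells. They were the 3 libraries labelled ERI-R and the 3 labelled Control, 6 of the 12 libraries of the series, and the comparison covered the 14226 genes that passed the filter on low counts. The labels describe PB3 as negative for the oestrogen receptor, the progesterone receptor and Her2, and they spell the drug Erubilin. ERI-R is the line PB3-ERI-R, for which the treatment protocol names eribulin at 300, 500 and 800 nM in the making of resistant clones. Control is PB3-Parental, with no drug. All cells were grown with 5% serum, and polyadenylated RNA (200 ng per library) was read as 76-base pairs of ends. The other libraries came from paclitaxel-resistant and vinorelbine-resistant PB3 lines (3 each), and they entered the model as well. The labels do not say whether ERI-R is 1 clone, nor whether the 3 libraries of a group came from separate cultures, so the p-values measure the spread between these libraries, which may be technical.

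Eribulin is a microtubule drug that binds the growing ends of microtubules and blocks cells in mitosis. Mammary epithelium has an inner layer of luminal cells and an outer layer of basal or myoepithelial cells. These layers are told apart by their keratins, their transcription factors and the basement membrane proteins they make. Carcinoma cells can shift between an epithelial state, with adherens junctions, apical polarity and epithelial splicing factors, and a mesenchymal state, in which matrix, guidance and growth factor genes of connective tissue or nerve are active. The values that follow concern gene families that surround this axis.

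Libraries ERI-R 1, ERI-R 2, Control 2 and Control 3 held macrophage RNA. Lyz2, which encodes lysozyme of macrophages, was at 415, 266 and 0 CPM (counts scaled to library size) in ERI-R 1 to 3, and at 0, 698 and 290 CPM in Control 1 to 3. A level above 100 CPM was taken as macrophage RNA, so each group had 2 libraries with it and 1 without (ERI-R 3 and Control 1). Of 20 macrophage markers, 15 were at 0 in ERI-R 3 and 14 in Control 1, Csf1r, Adgre1 and C1qa among them, and none was at 0 in the other libraries. Their summed level was 2316, 1522 and 167 CPM in ERI-R 1 to 3, and 19.2, 4096 and 1556 CPM in Control 1 to 3. Cd14 alone gave 163 CPM of the sum in ERI-R 3. The model therefore carried a yes or no term for macrophage RNA.

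The libraries with macrophage RNA also held low levels of genes of the other line. The 31 genes at 50 CPM or more in ERI-R 3 and at most 1 count in Control 1 had, in Control 2 and Control 3, a median of 2.73% and 0.617% of their level in ERI-R 1 and 2. The 31 genes with the opposite pattern had, in ERI-R 1 and ERI-R 2, a median of 4.79% and 2.57% of their level in Control 2 and 3. Both sets were chosen by at most 1 count in a library without macrophage RNA, and the low level of that library follows from the choice. The reverse choice, by near absence in a library with macrophage RNA, was not made. The source of these counts was not tested. Library ERI-R 3 stood apart in another way. Genes were put in classes by the summed length of their exons, with medians of 2343 bases in the short class and 8453 in the long class. Against the mean of ERI-R 1 and 2, ERI-R 3 was higher in the short class (median log2 difference 0.72) and lower in the long class (median -0.83). Control 1 against Control 2 and 3 gave 0.07 and -0.08. The fold changes of ERI-R over Control carried the tilt, with medians of 0.25 for the short and -0.30 for the long class, against 0.04 and 0.00086 in the libraries with macrophage RNA alone. Total counts per library were between 11141028 (ERI-R 3) and 13454395 (Control 1).

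**Figure D1:**
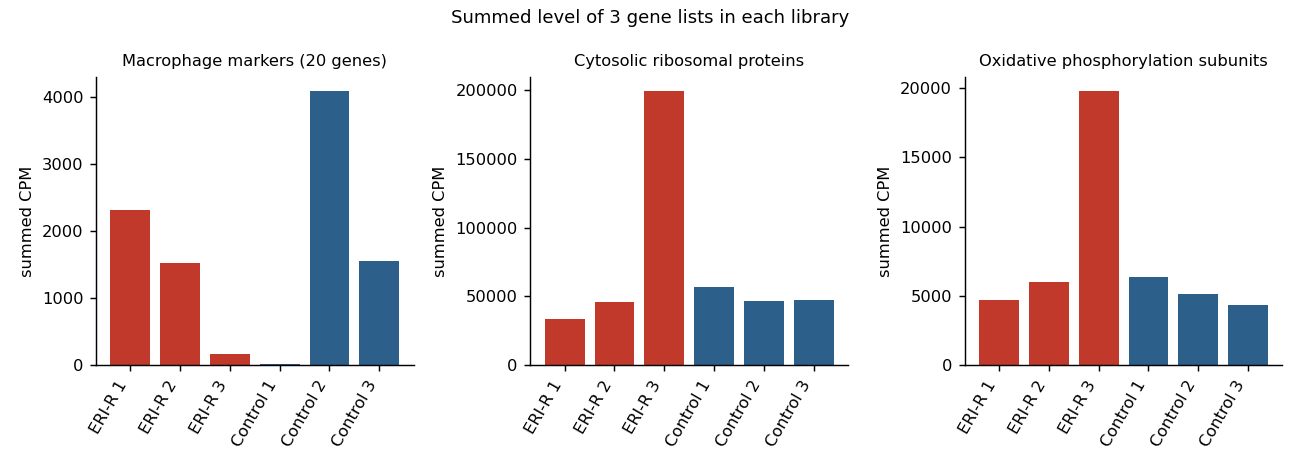
Summed CPM of the macrophage markers, the cytosolic ribosomal proteins and the oxidative phosphorylation subunits in each of the 6 libraries (bars, 1 library each). Macrophage markers are lowest in ERI-R 3 (167 CPM) and Control 1 (19.2 CPM), and the ribosomal (199539 CPM) and oxidative phosphorylation (19796 CPM) sums are highest in ERI-R 3.

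Of the 14226 genes tested, 2076 were higher (14.6%) and 2369 lower (16.7%) in ERI-R than in Control (edgeR quasi-likelihood test with the macrophage term, Benjamini-Hochberg adjusted p under 0.05, which is what "called", "higher" and "lower" mean for counts here). Of these, 1788 higher and 1905 lower genes differed at least 2-fold. In 5076 genes (35.7%) the 3 ERI-R libraries did not overlap with the 3 Control libraries. The libraries with macrophage RNA alone gave 3183 called genes among the 14226 tested here. ERI-R 3 against Control 1, which took no part in those calls, had the same sign in 2915 of them and at least a 2-fold difference of that sign in 2394. Of the 4445 genes called over all libraries, 2875 were called again in the same direction in that smaller set, whose libraries they share. Of these 4445 genes, 1855 were also called for the macrophage term, against 6944 of all 14226 genes tested. Among the called genes, 10 higher and 72 lower genes were under 1 CPM in both libraries without macrophage RNA. Of 34 tested markers of macrophages (19), lymphocytes (1), neutrophils and mast cells (5), endothelium (4) and fibroblasts (5), 0 were called between ERI-R and Control by edgeR, 1 was lower at an unadjusted p under 0.05, and DESeq2 called 1 higher and 1 lower. The median log2 fold change of all genes tested was -0.06. Genes are named below by a fixed rule. Genes that it names for size, list or a group near 0 kept their call when any 1 ERI-R or Control library was left out. They also kept it in the fit with no macrophage term. Genes named for size or list had to keep a log2 fold change within 1.5 times of the main value in these fits. They also had to show no overlap between the ERI-R and Control libraries, so this trait is no separate result for them. Genes named for a group near 0 and members of the runs of neighbours did not have to pass these conditions. Genes described as chosen with their values seen fall outside the rule.

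**Figure D2:**
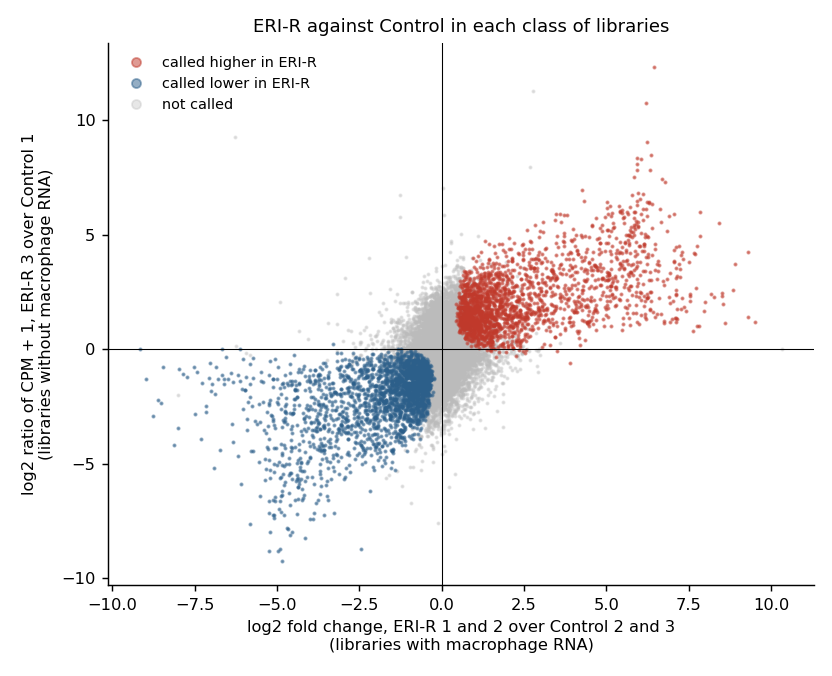
Each point is 1 of the 14226 genes tested, with its log2 fold change of ERI-R 1 and 2 over Control 2 and 3 (x axis) against the log2 ratio of CPM + 1 of ERI-R 3 over Control 1 (y axis). The genes in red (higher) and blue (lower) were called over all libraries, those of both axes included, so their place in the upper right and lower left follows in part from the calls.

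The receptor status on the labels was set beside the counts, with these 3 genes chosen for the label and their values seen. The counts measure RNA and not receptor protein, so they cannot decide the status. Esr1, the oestrogen receptor, was at 13.9, 9.23 and 5.05 CPM in ERI-R and 13.5, 11.2 and 13.6 CPM in Control, with a log2 fold change of -0.47 ± 0.31 (SE, edgeR adjusted p = 0.28). Erbb2, which encodes Her2, was at 37.7, 29.6 and 52.8 CPM in ERI-R and 39.0, 28.1 and 26.1 CPM in Control (0.35 ± 0.25, edgeR adjusted p = 0.31). Neither gene was called, and both groups overlapped. Pgr, the progesterone receptor, was at 8.61, 5.80 and 2.00 CPM in ERI-R and at 0, 0.252 and 0 CPM in Control. Every ERI-R library held Pgr reads, while Control held 3 counts in all, which puts the ratio at 72.2 (95% exact interval 24.4 to 353, counting error only; edgeR adjusted p = 0.0040).

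The largest rises belonged to genes of several kinds. Wfdc18, a secreted WAP-domain protein of the mammary gland, was at 123, 276 and 1878 CPM in ERI-R and 0.0723, 5.2 and 0.612 CPM in Control. Igfbp2, which binds insulin-like growth factors, was at 90.8, 87.4 and 537 CPM in ERI-R and 0, 2.10 and 0.437 CPM in Control. Both were highest in ERI-R 3, and no ERI-R library overlapped with a Control library, which the rule that names them requires. Their log2 fold changes were 8.96 ± 1.90 (SE, edgeR adjusted p = 0.0048) and 8.26 ± 1.60 (edgeR adjusted p = 0.0028). Ntrk2, the receptor for brain-derived neurotrophic factor, was at 120, 63.3 and 59.2 CPM in ERI-R and 0, 1.17 and 0.262 CPM in Control, and so was about as high in the library without macrophage RNA as in ERI-R 2 (7.85 ± 1.18, edgeR adjusted p = 0.00065). Alpl, the tissue-nonspecific alkaline phosphatase, changed by 7.77 ± 1.02. Fxyd3, a small subunit that regulates the sodium pump, changed by 8.15 ± 1.14. Cited4, a coactivator that binds CBP and p300, changed by 7.91 ± 1.38, and Sox11, a transcription factor of neural and embryonic tissue, by 7.67 ± 1.16 (edgeR adjusted p = 0.00043 for Fxyd3 and 0.0016 for Cited4). Prlr, the prolactin receptor, was at 181, 218 and 229 CPM in ERI-R and 0, 4.70 and 0.612 CPM in Control, the most even of these rises across the ERI-R libraries.

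The largest falls also belonged to genes of several kinds. Adgra2, an adhesion receptor that takes part in Wnt7 signalling, was at 11.2, 5.95 and 0.105 CPM in ERI-R and 503, 346 and 344 CPM in Control. Gxylt2, which adds xylose to glucose on the repeats of Notch receptors, was at 5.49, 3.28 and 0.105 CPM in ERI-R and 215, 213 and 315 CPM in Control. Ccbe1, a secreted protein needed to process the lymphatic growth factor Vegfc, was at 7.24, 4.04 and 0 CPM in ERI-R and 141, 211 and 244 CPM in Control. In all 3 genes ERI-R 3, without macrophage RNA, was the lowest library, and the groups lay far apart. The log2 fold changes were -6.13 ± 0.96, -6.50 ± 0.74 and -5.96 ± 0.80 (edgeR adjusted p = 0.00081, 0.00016 and 0.00036). Ildr2, of the tricellular junction family, changed by -7.67 ± 0.52, Cd34, a surface sialomucin, by -6.69 ± 0.95, and Mrc2, a receptor that takes up collagen fragments, by -6.12 ± 0.52. Cacnb2, a calcium channel subunit, changed by -6.21 ± 0.64, and Nrn1, the neurite-promoting protein neuritin, by -6.71 ± 0.66. Bcat1, which starts the breakdown of branched-chain amino acids in the cytosol, was at 1.3, 0.763 and 0 CPM in ERI-R and 51.0, 41.3 and 49.4 CPM in Control (-6.10 ± 0.59, edgeR adjusted p = 8.0e-05).

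**Figure D3:**
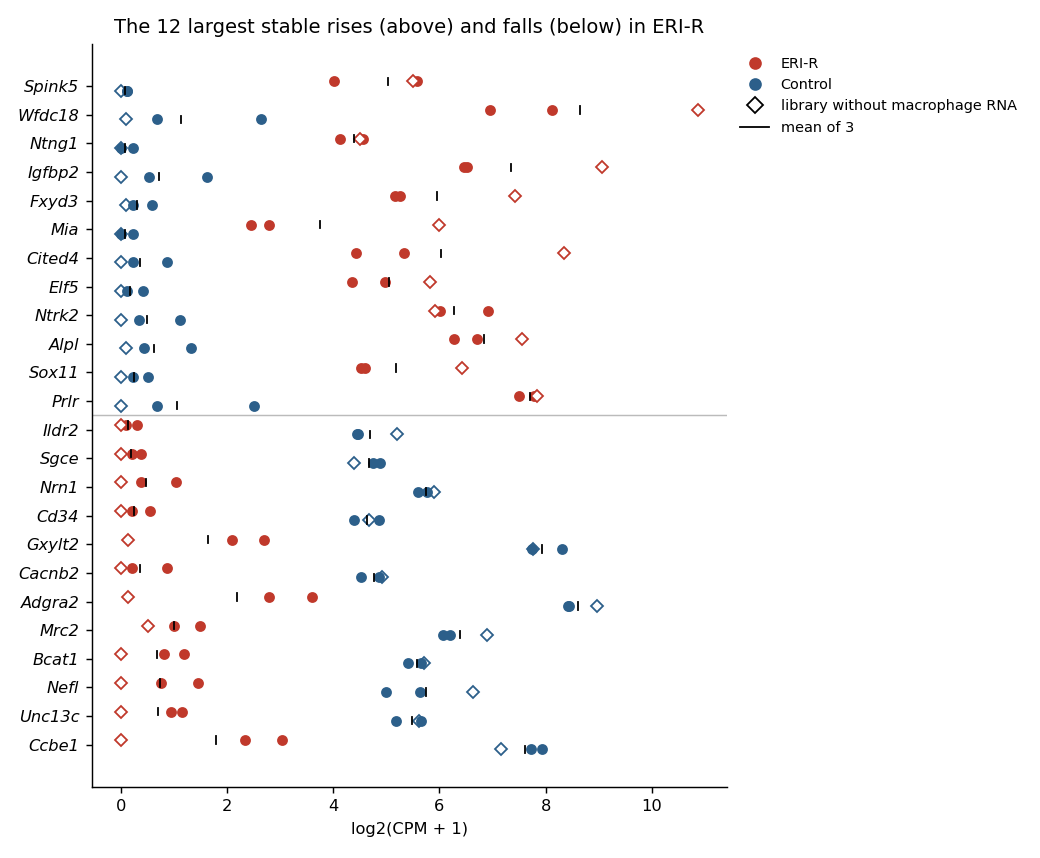
log2(CPM + 1) of the 12 genes with the largest rise (above the line) and the 12 with the largest fall (below it) in ERI-R, 1 point per library, with open diamonds for the libraries without macrophage RNA (ERI-R 3 and Control 1) and black ticks for the mean of 3. The ERI-R and Control points of the 24 genes do not overlap, which the rule that names them requires.

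In 14 genes whose ERI-R mean reached 10 CPM, the 3 Control libraries held at most 3 counts in all, and 2 genes had the opposite pattern. Spink5, an inhibitor of the serine proteases that shed the outer skin, was at 46.6, 15.1 and 44.3 CPM in ERI-R and 0, 0.0839 and 0.0874 CPM in Control, a ratio of 640 (95% exact interval 177 to 5292, counting error only). Ntng1, the membrane-anchored guidance protein netrin-G1, was at 16.4, 22.5 and 21.8 CPM in ERI-R and 0, 0.168 and 0 CPM in Control, a ratio of 373 (103 to 3087). The ERI-R levels of Ntng1 were close to each other and its Control reads came from Control 2 alone. Gdf5, a joint and cartilage growth factor of the BMP family, reached a ratio of 611 (109 to 24180) on 1 Control count. Bcl11a, a zinc finger repressor also active in mammary stem cells, was at 17.8, 10.9 and 14.6 CPM in ERI-R and had 2 Control counts (ratio 268, 73.8 to 2219). The others named were Mia, a small secreted protein (380, 105 to 3143), Sncg, gamma-synuclein (180, 61.2 to 874), and Map3k21, a mixed-lineage kinase (220, 74.8 to 1068). Mia was uneven, at 62.5 CPM in ERI-R 3 and 4.44 and 5.95 CPM in ERI-R 1 and 2, and the DESeq2 Wald test did not call it. The genes near 0 in ERI-R were Acsl6, an acyl-CoA synthetase of brain and red cells, and Ror2, a receptor for Wnt5a. Acsl6 was at 0.0762, 0.0763 and 0 CPM in ERI-R and 14.02, 12.4 and 16.4 CPM in Control, so it was 255-fold lower in ERI-R (70.1 to 2108), and Ror2 was 149-fold lower (50.7 to 726).

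Elf5, the Ets factor of luminal progenitors, was at 19.4, 30.4 and 56.0 CPM in ERI-R and 0, 0.335 and 0.0874 CPM in Control (7.89 ± 0.95, edgeR adjusted p = 0.00020). Unc13c, which primes synaptic vesicles, was at 1.22, 0.915 and 0 CPM in ERI-R and 48.3, 35.5 and 49.5 CPM in Control (-5.99 ± 0.60, edgeR adjusted p = 9.1e-05). The first gene rose and the second fell with no overlap between the groups, which the rule that names them requires. Promoters of tested genes (250 bases before to 50 after the start, RefSeq, build GRCm38.p6, 10310 genes matched) were searched for CAGGTG or CACCTG, the 2 strands of the E-box that Zeb and Snai repressors bind. It was found in 23.3% of 1575 promoters of genes called higher, in 15.9% of 1776 promoters of genes called lower and in 16.9% of all 10310. The grainyhead motif AACCNGTT, on either strand, was in 2.35%, 1.58% and 1.80%, and TGANTCA, the AP-1 motif, was in 4.76%, 6.70% and 4.98%. The perfect palindrome AACCGGTT was in 0.127%, 0.225% and 0.262%. The median GC content was 61.0%, 62.7% and 61.0%. These shares describe letters in a window, not binding, and none was tested. The promoters below are those of named genes that rose with 3 E-boxes or with both an E-box and AACCNGTT (Elf5, Hpn, Mapk13 and Rab25), and of the named gene that fell with 2 E-boxes (Unc13c), with E-boxes and AACCNGTT in capitals.
Elf5 promoter, chr2:103411848-103412147, plus strand: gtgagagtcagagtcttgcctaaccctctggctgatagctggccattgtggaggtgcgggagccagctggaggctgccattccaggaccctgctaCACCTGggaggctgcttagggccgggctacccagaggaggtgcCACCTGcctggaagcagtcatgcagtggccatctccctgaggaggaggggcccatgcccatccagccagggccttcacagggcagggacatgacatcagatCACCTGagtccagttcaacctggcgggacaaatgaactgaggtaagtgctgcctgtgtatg
Hpn promoter, chr7:31115277-31115576, minus strand: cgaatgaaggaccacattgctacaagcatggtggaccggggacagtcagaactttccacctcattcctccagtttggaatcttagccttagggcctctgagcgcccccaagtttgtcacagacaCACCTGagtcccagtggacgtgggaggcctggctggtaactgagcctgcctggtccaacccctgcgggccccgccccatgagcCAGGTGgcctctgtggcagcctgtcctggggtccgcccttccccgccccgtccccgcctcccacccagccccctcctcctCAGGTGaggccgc
Mapk13 promoter, chr17:28769067-28769366, plus strand: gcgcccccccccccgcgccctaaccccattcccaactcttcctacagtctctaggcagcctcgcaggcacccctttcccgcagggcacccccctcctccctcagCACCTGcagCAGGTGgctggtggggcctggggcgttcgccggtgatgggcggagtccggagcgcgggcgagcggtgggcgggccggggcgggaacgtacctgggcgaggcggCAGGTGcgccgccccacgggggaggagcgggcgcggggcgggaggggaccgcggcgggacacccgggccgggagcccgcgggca
Rab25 promoter, chr3:88548230-88548529, minus strand: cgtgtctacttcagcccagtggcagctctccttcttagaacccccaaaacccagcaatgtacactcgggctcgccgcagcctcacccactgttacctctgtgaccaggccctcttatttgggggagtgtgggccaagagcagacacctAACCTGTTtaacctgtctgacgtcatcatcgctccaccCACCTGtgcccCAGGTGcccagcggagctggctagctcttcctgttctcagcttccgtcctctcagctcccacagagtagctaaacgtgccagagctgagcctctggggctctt
Unc13c promoter, chr9:73968988-73969287, minus strand: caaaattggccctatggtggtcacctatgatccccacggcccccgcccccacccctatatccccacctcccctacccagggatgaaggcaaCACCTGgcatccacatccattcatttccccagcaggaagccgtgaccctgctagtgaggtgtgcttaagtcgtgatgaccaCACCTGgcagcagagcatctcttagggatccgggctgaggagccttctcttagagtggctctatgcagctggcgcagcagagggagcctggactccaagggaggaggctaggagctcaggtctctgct
Hpn, the membrane serine protease hepsin, was at 8.0, 5.65 and 24.3 CPM in ERI-R and 0, 0.335 and 0.0874 CPM in Control. Mapk13, the p38 delta kinase of epithelia, was at 16.8, 21.3 and 155 CPM in ERI-R and 7.15, 6.88 and 4.02 CPM in Control. Rab25, which recycles integrins and other cargo to the apical side of epithelial cells, was at 24.5, 36.3 and 125 CPM in ERI-R and 1.08, 1.43 and 0.525 CPM in Control. In each of these 3 genes ERI-R 3 was the highest library and ERI-R 1 and 2 were above every Control library.

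**Figure D4:**
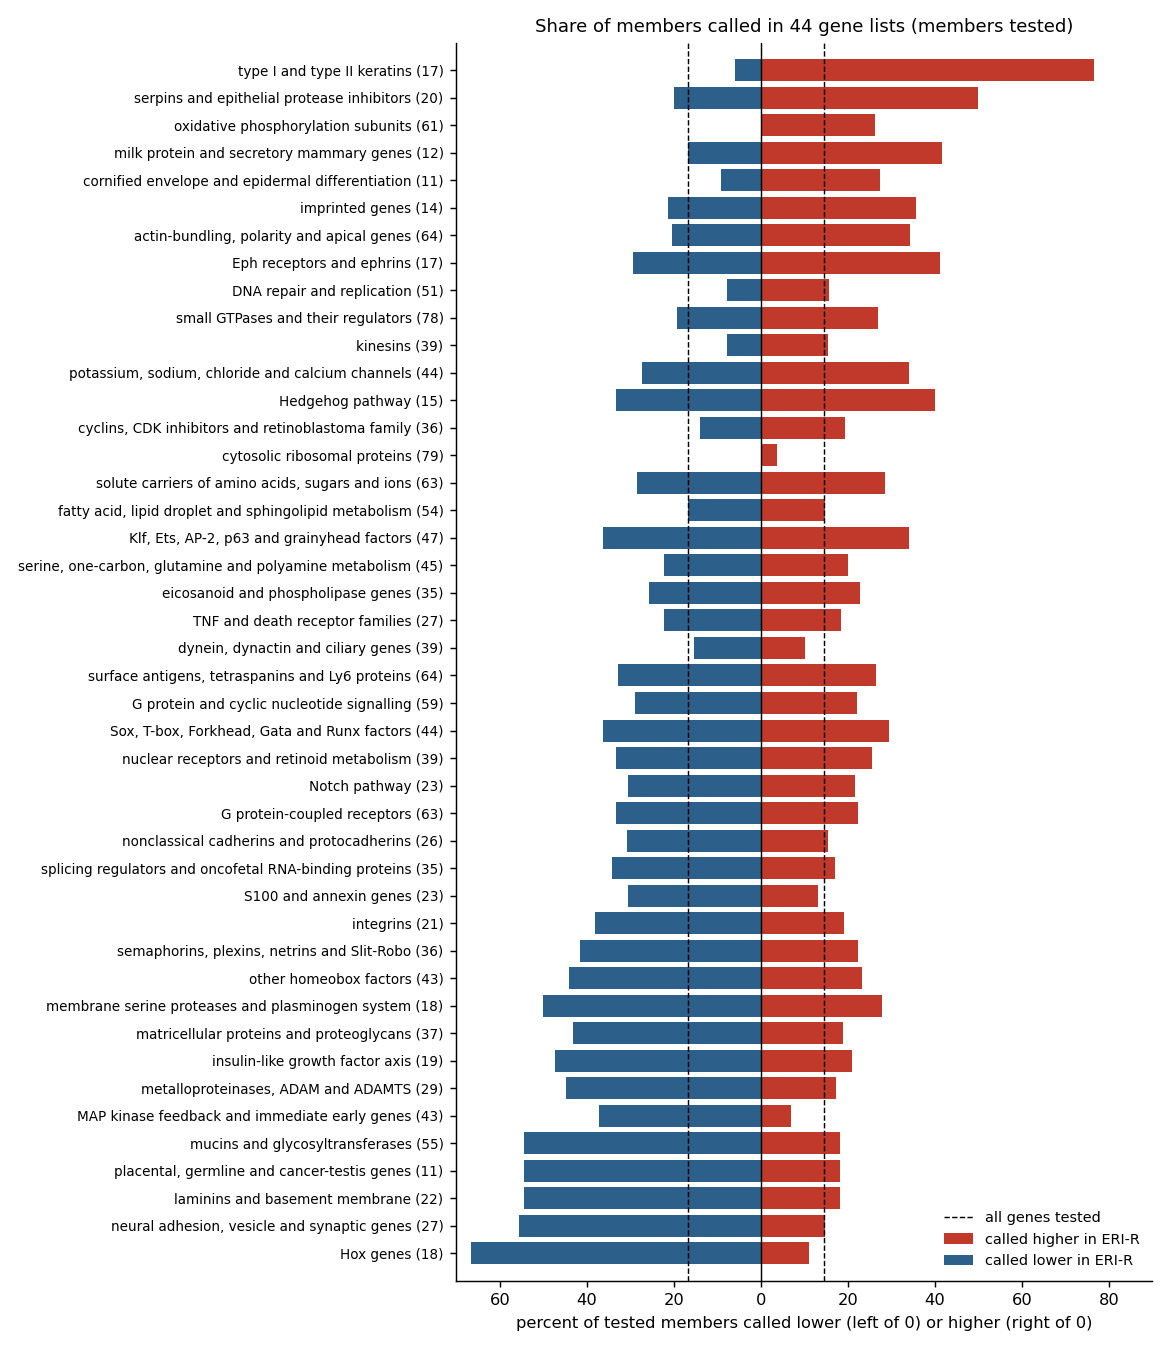
Percent of the tested members of 44 gene lists called higher (red, right of 0) and lower (blue, left of 0) in ERI-R, with the number of members tested in brackets and, as dashed lines, the shares over all genes tested (14.6% higher, 16.7% lower). Keratins are at the top, with 13 of 17 members higher, and Hox genes at the bottom, with 12 of 18 lower.

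Counts of members called in a list are to be read beside the shares over all genes tested, 14.6% higher and 16.7% lower. The medians of many lists depended on ERI-R 3 and Control 1. Where a list's median in the libraries with macrophage RNA alone had the other sign or differed by more than 1.5 times, it follows the median over all libraries as the value without ERI-R 3 and Control 1. In ERI-R 3 over Control 1 alone, on the log2(CPM + 1) scale, the median had the other sign to that over all libraries in the Hedgehog (-0.81), S100 and annexin (0.16), serine and one-carbon (0.096), Notch (0.041) and fatty acid (-0.043) lists.

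Keratins, the intermediate filament proteins of epithelia, had 13 of 17 tested members higher and 1 lower (32 in the list, median log2 fold change 2.85, or 4.50 without ERI-R 3 and Control 1, against -0.06 for all genes tested). The exception, Krt18 of simple epithelia, lost its call when any 1 of ERI-R 1, ERI-R 2, Control 2 and Control 3 was left out. Per length, the make-up of the family changed. Krt14 was at 195, 368 and 651 TPM (transcript abundance scaled for length and library size) in ERI-R and 2.07, 6.46 and 1.22 TPM in Control. Krt18 was at 194, 260 and 560 TPM in ERI-R and 1506, 1023 and 970 TPM in Control, so that it remained among the most abundant keratins in both groups. The family total overlapped between the groups, at 838, 1285 and 1962 TPM in ERI-R and 2724, 1855 and 1537 TPM in Control. Krt15, of basal and stem-like cells, was at 25.1, 25.3 and 51.7 CPM in ERI-R and 0, 0.755 and 0.175 CPM in Control (6.72 ± 0.77, edgeR adjusted p = 0.00016). In the cornified envelope list 3 of 11 tested members were higher and 1 lower (34 in the list; 2 lower without Control 2 or without ERI-R 2; median 0.44, or -0.08 without ERI-R 3 and Control 1). Tgm1, the transglutaminase that crosslinks the envelope, changed by 6.22 ± 1.03, and Evpl, envoplakin, by 5.18 ± 0.77. Klk8, a secreted serine protease of skin and brain, changed by -4.33 ± 0.54.

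Secreted products of the mammary gland went both ways, with 5 of 12 tested members higher and 2 lower (24 in the list, median 0.37, or 0.15 without ERI-R 3 and Control 1). Aqp5, a water channel of gland cells, was at 188, 132 and 491 CPM in ERI-R and 37.1, 14.8 and 8.22 CPM in Control (3.77 ± 0.36, edgeR adjusted p = 7.4e-05). Spp1, the secreted phosphoprotein osteopontin, was at 1216, 769 and 251 CPM in ERI-R and 3582, 3820 and 4321 CPM in Control (-2.52 ± 0.41, edgeR adjusted p = 0.0011). The lowest ERI-R level of Spp1 was in ERI-R 3, which held no macrophage RNA. Csn3, kappa-casein, changed by -2.24 ± 0.43. Protease inhibitors had 10 of 20 tested members higher and 4 lower (27 in the list; 2 lower without Control 2 or without ERI-R 2; median 1.86). Serpinb5, the epithelial serpin maspin, was at 174, 348 and 114 CPM in ERI-R and 1.73, 7.46 and 1.66 CPM in Control (5.95 ± 0.83, edgeR adjusted p = 0.00045). Wfdc2, a WAP-domain protein of glands, changed by 5.23 ± 0.60. Timp1, an inhibitor of metalloproteinases, was at 7.01, 4.35 and 0.210 CPM in ERI-R and 115, 82.6 and 50.8 CPM in Control (-4.26 ± 0.84, edgeR adjusted p = 0.0033).

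Among membrane serine proteases and the plasminogen system, 5 of 18 tested members were higher and 9 lower (21 in the list, median -1.55, or -0.81 without ERI-R 3 and Control 1). The named rises were epithelial membrane proteases. St14, matriptase, was at 134, 170 and 340 CPM in ERI-R and 3.47, 5.45 and 2.36 CPM in Control (5.86 ± 0.84, edgeR adjusted p = 0.00048). Tmprss13 changed by 7.27 ± 0.92 and Hpn by 6.35 ± 1.28. Those that fell included Plat, the tissue plasminogen activator, at 3.20, 2.14 and 0.316 CPM in ERI-R and 66.8, 58.6 and 50.9 CPM in Control (-4.94 ± 0.58, edgeR adjusted p = 0.00017). Thbd, thrombomodulin, changed by -5.03 ± 0.79, and Tmprss11e, another membrane protease of this family, by -5.81 ± 0.73, against the direction of Tmprss13. Metalloproteinases, ADAM and ADAMTS enzymes had 5 of 29 tested members higher and 13 lower (39 in the list, median -0.73, or -0.42 without ERI-R 3 and Control 1). Adamts1, which cuts the proteoglycan versican, was at 451, 320 and 142 CPM in ERI-R and 13.1, 16.6 and 8.65 CPM in Control (4.47 ± 0.43, edgeR adjusted p = 8.0e-05). Mmp15, a membrane-bound metalloproteinase, changed by 5.10 ± 0.58, and Adamts5, an aggrecan-cutting enzyme, by 3.84 ± 0.49. Adamts6, of the same enzyme family, changed by -5.04 ± 0.65, and Adam19, a membrane sheddase, by -4.52 ± 0.74.

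The laminin and basement membrane list had 4 of 22 tested members higher and 12 lower (29 in the list, median -1.29). Lamb3, the beta chain of the epithelial laminin of hemidesmosomes, was at 204, 124 and 226 CPM in ERI-R and 5.13, 5.28 and 1.40 CPM in Control (5.56 ± 0.51, edgeR adjusted p = 5.9e-05). Per length, Lamb3 was at 109, 58.4 and 47.2 TPM in ERI-R and 2.2, 2.05 and 0.590 TPM in Control, while Lamb1, the widely used beta chain, was at 86.0, 60.2 and 14.5 TPM in ERI-R and 325, 221 and 343 TPM in Control. The 2 beta chains therefore stood at comparable TPM in ERI-R 1 and 2, and Lamb1 was far above Lamb3 in every Control library. Lama4, chosen with its values seen, was at 42.4, 27.0 and 42.2 TPM in ERI-R and 1.07, 1.31 and 1.01 TPM in Control. Fras1, which anchors the epidermal basement membrane, changed by 6.10 ± 0.77. Nid1, nidogen, which links laminin to collagen IV, was at 0.305, 0.305 and 0 CPM in ERI-R and 27.9, 14.1 and 11.45 CPM in Control (-6.23 ± 0.83, edgeR adjusted p = 0.00035).

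Matricellular proteins and proteoglycans had 7 of 37 tested members higher and 16 lower (52 in the list, median -1.32). The fibulins, which bind elastic fibres and basement membrane, split. Fbln5 was at 78.3, 70.7 and 43.8 CPM in ERI-R and 0.723, 2.60 and 0.787 CPM in Control. Fbln2 was at 16.2, 8.32 and 0.947 CPM in ERI-R and 439, 341 and 340 CPM in Control. Their log2 fold changes were 5.56 ± 0.63 and -5.38 ± 0.83 (edgeR adjusted p = 0.00015 and 0.00073), and Fbln1 changed by -3.66 ± 0.27. Smoc1, a secreted calcium-binding protein of basement membranes, changed by 5.35 ± 0.39. Fbn1, the microfibril protein fibrillin-1, changed by -5.00 ± 0.86. Of the integrins, 4 of 21 tested members were higher and 8 lower (23 in the list; 2 higher without Control 3 or without ERI-R 1; median -0.96, or -0.63 without ERI-R 3 and Control 1). Itgb4, which joins laminin to keratin at hemidesmosomes, was at 310, 341 and 669 CPM in ERI-R and 211, 154 and 161 CPM in Control (1.25 ± 0.21, edgeR adjusted p = 0.0013). Itga3, a laminin receptor chain, was at 125, 114 and 131 CPM in ERI-R and 1577, 1053 and 992 CPM in Control (-3.23 ± 0.29, edgeR adjusted p = 5.6e-05). The ERI-R libraries differed little from each other in Itga3, and every Control library was far above them. Itgb1, the partner of most alpha chains, was at 615, 673 and 209 CPM in ERI-R and 1579, 1920 and 2080 CPM in Control. Itga2, a collagen receptor chain, changed by -4.74 ± 0.71.

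Hox genes, which set position along the body axis, had 12 of 18 tested members lower and 2 higher (39 in the list, median -1.52). Only 1 was higher without Control 1, Control 3 or ERI-R 1. Hoxa7 was at 1.75, 0.534 and 2.21 CPM in ERI-R and 22.5, 14.9 and 13.7 CPM in Control (-3.52 ± 0.41, edgeR adjusted p = 0.00016). Hoxb4 changed by -4.31 ± 0.57 and Hoxa5 by -1.44 ± 0.29. A run of neighbours on chromosome 11, Hoxb9, Hoxb8, Hoxb7, Hoxb6, Hoxb4 and Hoxb3 with 1 unnamed transcript, was called lower at each of its 7 tested genes (chosen with its values seen, median log2 fold change -5.50). The other homeobox factors had 10 of 43 tested members higher and 19 lower (68 in the list, median -0.43). Dlx2, of forebrain and facial arches, was at 50.8, 15.3 and 31.6 CPM in ERI-R and 0.723, 1.51 and 0.962 CPM in Control (4.95 ± 0.54, edgeR adjusted p = 0.00012), and its neighbour Dlx1 changed by 2.41 ± 0.41. Msx1, a target of BMP signals in tooth and limb, changed by 3.11 ± 0.50. Prrx1, of connective tissue progenitors, was at 5.41, 2.59 and 0 CPM in ERI-R and 81.2, 110 and 137 CPM in Control (-5.62 ± 0.71, edgeR adjusted p = 0.00026). Lhx8, of forebrain neurons and oocytes, had 0 counts in ERI-R and 198 in Control, at least 63.4-fold lower against a floor of 3 counts over the group. Pax6, of eye and brain, had 1 count in ERI-R and 248 in Control (238-fold lower, 95% exact interval 42.4 to 9447, counting error only).

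In the Sox, T-box, Forkhead, Gata and Runx list 13 of 44 tested members were higher and 16 lower (58 in the list, median -0.30, or 0.07 without ERI-R 3 and Control 1). Sox6, of cartilage and neural cells, changed by 5.60 ± 0.70. Foxj1, the regulator of motile cilia, was at 20.4, 39.0 and 67.1 CPM in ERI-R and 0.867, 0.922 and 0.874 CPM in Control (5.45 ± 0.51, edgeR adjusted p = 6.6e-05). Gata6, of endoderm and heart, was at 1.68, 0.687 and 0.316 CPM in ERI-R and 31.6, 35.4 and 37.5 CPM in Control (-5.29 ± 0.43, edgeR adjusted p = 4.9e-05). The Control libraries were even in both genes, and the ERI-R libraries varied more. Gata2, of blood progenitors, changed by -5.25 ± 0.67, and Tbx18, of mesenchyme, by -5.39 ± 0.44. The Klf, Ets, AP-2, p63 and grainyhead list had 16 of 47 tested members higher and 17 lower (51 in the list, median -0.35, or -0.13 without ERI-R 3 and Control 1). The lower count was 11 when any 1 of ERI-R 2, ERI-R 3, Control 1 and Control 3 was left out. Ehf, an epithelial Ets factor, was at 182, 349 and 228 CPM in ERI-R and 0, 8.30 and 1.14 CPM in Control (7.32 ± 1.41, edgeR adjusted p = 0.0027). Etv1, an Ets factor downstream of receptor kinases, was at 17.3, 8.16 and 1.89 CPM in ERI-R and 64.7, 84.1 and 110 CPM in Control (-3.52 ± 0.45, edgeR adjusted p = 0.00026). Tfap2b, an AP-2 factor of neural crest and gland, was at 18.4, 13.5 and 22.2 CPM in ERI-R and 136, 126 and 122 CPM in Control (-2.83 ± 0.24, edgeR adjusted p = 4.9e-05).

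Nuclear receptors and retinoid genes had 10 of 39 tested members higher and 13 lower (52 in the list, median -0.20). Nr3c2, the mineralocorticoid receptor, was at 13.5, 8.62 and 0.947 CPM in ERI-R and 0.0723, 0.252 and 0.262 CPM in Control (5.00 ± 0.59, edgeR adjusted p = 0.00017). The ERI-R library without macrophage RNA was the lowest of the 3 in this gene, and still above every Control library. Crabp1, which binds retinoic acid in the cytosol, had 0 counts in ERI-R and 200 in Control, at least 64.0-fold lower against 3 counts over the group. Cyp26b1, which degrades retinoic acid, changed by 4.15 ± 0.55.

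Eph receptors and ephrins, membrane proteins that signal between touching cells, had 7 of 17 tested members higher and 5 lower (22 in the list, median 0.70, or 0.28 without ERI-R 3 and Control 1). Efnb2, a ligand of B receptors, was at 12.04, 12.6 and 2.31 CPM in ERI-R and 143, 110 and 120 CPM in Control (-3.89 ± 0.49, edgeR adjusted p = 0.00025). Efna5 was at 77.5, 84.1 and 96.5 CPM in ERI-R and 32.7, 27.3 and 34.4 CPM in Control (1.45 ± 0.19, edgeR adjusted p = 0.00029). Efnb2 was thus the most abundant ephrin of Control per length (53.5, 36.0 and 42.2 TPM), and it was at 5.13, 4.73 and 0.400 TPM in ERI-R. Epha2, a receptor of epithelial and tumour cells, was at 67.7, 49.97 and 36.0 CPM in ERI-R and 489, 324 and 326 CPM in Control (-2.82 ± 0.34, edgeR adjusted p = 0.00020). Epha7 was at 119, 62.9 and 27.1 CPM in ERI-R and 1.08, 3.27 and 1.31 CPM in Control (5.10 ± 0.50, edgeR adjusted p = 8.7e-05). Ephb4, chosen with its values seen, was at 142, 113 and 57.1 TPM in ERI-R and 63.3, 41.4 and 48.1 TPM in Control, where Epha2 stood at 225, 135 and 146 TPM. By TPM the leading receptor was Ephb4 in each ERI-R library and Epha2 in each Control library.

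Semaphorins, plexins, netrins and Slit-Robo genes had 8 of 36 tested members higher and 15 lower (47 in the list, median -1.02, or -0.35 without ERI-R 3 and Control 1). The 3 named semaphorins fell. Sema3a, a repellent of axons, was at 2.90, 3.81 and 0.526 CPM in ERI-R and 89.0, 69.4 and 75.5 CPM in Control (-5.19 ± 0.52, edgeR adjusted p = 9.2e-05). Sema7a, an anchored semaphorin that binds beta-1 integrin, changed by -4.96 ± 0.93, and Sema6d by -5.35 ± 0.49. The 3 named rises were receptors. Robo1, the Slit receptor, was at 21.3, 19.99 and 4.0 CPM in ERI-R and 0.145, 0.419 and 0.175 CPM in Control (5.76 ± 0.63, edgeR adjusted p = 0.00013). Robo3, of the same family, was at 2.74, 9.84 and 45.1 CPM in ERI-R, in the opposite order of libraries to Robo1, and at 0, 0.168 and 0.175 CPM in Control. Unc5c, a netrin receptor, changed by 4.80 ± 0.49. Neural adhesion, vesicle and synaptic genes had 4 of 27 tested members higher and 15 lower (57 in the list, median -1.72). Nefl, the light neurofilament chain, was at 1.75, 0.687 and 0 CPM in ERI-R and 98.1, 48.4 and 30.7 CPM in Control (-6.09 ± 0.84, edgeR adjusted p = 0.00039). Gdnf, a neurotrophic ligand, changed by -6.38 ± 0.50, while Nrtn, a ligand of the same family, changed by 4.54 ± 0.80 and was highest in ERI-R 3 (47.2 CPM, against 2.21 and 2.98 CPM in ERI-R 1 and 2). Ptprn, of dense-core vesicles, changed by -5.53 ± 0.69.

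The nonclassical cadherins had 4 of 26 tested members higher and 8 lower (39 in the list, median -0.80, or -0.45 without ERI-R 3 and Control 1). Fat2, a giant cadherin of migrating epithelia, was at 77.1, 48.4 and 37.0 CPM in ERI-R and 0.145, 1.51 and 0.350 CPM in Control (6.50 ± 0.66, edgeR adjusted p = 0.00010). The planar polarity cadherins Celsr1 and Celsr2 changed by 5.10 ± 0.49 and 3.38 ± 0.35. Cdh6, a cadherin of kidney and neural crest, was at 5.79, 2.52 and 0 CPM in ERI-R and 93.9, 45.4 and 73.2 CPM in Control (-4.89 ± 0.90, edgeR adjusted p = 0.0021). Pcdh9 and Pcdh17, protocadherins of brain, changed by -5.02 ± 0.44 and -4.34 ± 0.54.

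In the Notch pathway 5 of 23 tested members were higher and 7 lower (32 in the list, median -0.12). The named receptors rose. Notch1 was at 333, 353 and 251 CPM in ERI-R and 64.2, 67.3 and 66.0 CPM in Control, and Notch3 was at 70.6, 72.9 and 38.7 CPM in ERI-R and 1.73, 3.10 and 1.22 CPM in Control. Their log2 fold changes were 2.22 ± 0.29 and 4.88 ± 0.45 (edgeR adjusted p = 0.00029 and 5.9e-05). Jag1, a ligand, was at 25.0, 18.2 and 2.52 CPM in ERI-R and 84.4, 151 and 125 CPM in Control (-3.35 ± 0.48, edgeR adjusted p = 0.00047). Rbpj, the DNA-binding factor that Notch acts through, was at 226, 165 and 40.1 CPM in ERI-R and 639, 619 and 803 CPM in Control (-2.50 ± 0.43, edgeR adjusted p = 0.0015). The target genes split, with Hey1 at 89.3, 45.7 and 53.8 CPM in ERI-R and 0.434, 1.93 and 0.525 CPM in Control, and Nrarp, a feedback inhibitor, changing by -1.71 ± 0.25. Hey1 changed by 6.22 ± 0.66 (edgeR adjusted p = 0.00011).

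The Hedgehog list had 6 of 15 tested members higher and 5 lower (19 in the list, median 0.58, or 1.31 without ERI-R 3 and Control 1). Scube1 and Scube3, secreted proteins of a family that releases the ligand, changed by 7.38 ± 1.08 and 5.44 ± 0.70. Boc, a coreceptor, was at 85.3, 36.1 and 58.3 CPM in ERI-R and 9.32, 8.05 and 6.56 CPM in Control (2.93 ± 0.32, edgeR adjusted p = 0.00013). Dhh, a ligand, had 2 counts in ERI-R and was 111-fold lower there (95% exact interval 30.2 to 918, counting error only). Hhat, which attaches palmitate to the ligand, changed by -2.82 ± 0.43, and Hhip, a decoy receptor, by -2.76 ± 0.43. The insulin-like growth factor axis had 4 of 19 tested members higher and 9 lower (25 in the list, median -2.07, or -1.37 without ERI-R 3 and Control 1). Its binding proteins did not all move in 1 direction. Igfbp4 was at 124, 89.5 and 289 CPM in ERI-R and 3682, 2979 and 2319 CPM in Control (-4.33 ± 0.37, edgeR adjusted p = 5.4e-05), opposite to Igfbp2 above. Igfbp3 changed by -5.11 ± 0.88 and Stc1, stanniocalcin, which blocks a protease of Igfbp4, by -5.72 ± 0.83.

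Imprinted genes had 5 of 14 tested members higher and 3 lower (30 in the list, median 0.80, or 0.36 without ERI-R 3 and Control 1), and neighbours moved together. Peg3 and Usp29, which lie side by side on chromosome 7 and are read from the paternal copy, were both higher. Peg3 was at 159, 90.9 and 57.4 CPM in ERI-R and 1.16, 3.44 and 1.92 CPM in Control (5.63 ± 0.77, edgeR adjusted p = 0.00039), and Usp29 changed by 5.79 ± 0.95. Sgce and Peg10, side by side on chromosome 6 and also paternally read, were both lower. Sgce, epsilon-sarcoglycan, was at 0.152, 0.305 and 0 CPM in ERI-R and 19.9, 25.8 and 28.3 CPM in Control (-7.18 ± 0.54, edgeR adjusted p = 4.8e-05), and Peg10 changed by -4.99 ± 0.71. H19, a maternally read noncoding RNA, was uneven in ERI-R at 101, 14.3 and 137 CPM, against 1.23, 2.18 and 0.612 CPM in Control. The placental, germline and cancer-testis list had 2 of 11 tested members higher and 6 lower (46 in the list, median -2.66). Lin28b, which blocks maturation of let-7 microRNAs, was at 0.152, 0.229 and 0 CPM in ERI-R and 8.17, 4.86 and 6.99 CPM in Control (-5.58 ± 0.66, edgeR adjusted p = 0.00019). Prl2c2 and Prl2c3, placental prolactin-related genes, changed by -5.05 ± 0.76 and -5.35 ± 1.09, but they are near-identical copies, and how reads were split between them is uncertain. Maged2 changed by 2.21 ± 0.29.

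Motors and the cytoskeleton were of interest beside a microtubule drug. Kinesins had 6 of 39 tested members higher and 3 lower (46 in the list, median -0.02, or 0.12 without ERI-R 3 and Control 1). These shares were 15.4% and 7.7%, against 14.6% and 16.7% of all genes. The higher count was 10 without ERI-R 3, and the lower count was 1 without Control 1 or ERI-R 2 and 5 without ERI-R 1. The named rises were Kif26a, Kif26b and Kif21a. Kif21a, which stops microtubule growth at the cell edge, was at 91.1, 59.4 and 129 CPM in ERI-R and 13.7, 9.73 and 12.5 CPM in Control (2.97 ± 0.41, edgeR adjusted p = 0.00042). Kif26a, a kinesin-like protein that binds but does not walk on microtubules, was at 37.0, 29.8 and 49.7 CPM in ERI-R and 0.795, 2.77 and 1.66 CPM in Control (4.61 ± 0.48, edgeR adjusted p = 0.00011). Both had no overlap between the groups, which the rule that names them requires. Kif26b changed by 3.32 ± 0.58 and Kif3c, a transport kinesin of neurons, by -2.12 ± 0.34. Of 13 kinesins of the mitotic spindle, chosen with their values seen, 12 were not called, with log2 fold changes of -0.69 to 0.34. Kif4, which binds mitotic chromosomes, was at 128, 126 and 90.6 CPM in ERI-R and 77.5, 63.6 and 55.5 CPM in Control (0.82 ± 0.22, edgeR adjusted p = 0.016), and it lost its call without Control 2 or Control 3. Dynein, dynactin and ciliary genes had 4 of 39 tested members higher and 6 lower (56 in the list, 2 lower without Control 1, median -0.18, or -0.09 without ERI-R 3 and Control 1), near the share of all genes. Bbs7, of the ciliary BBSome, changed by 1.65 ± 0.33 and Bicd1, a dynein adaptor, by -2.45 ± 0.42.

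Small GTPases and their regulators had 21 of 78 tested members higher and 15 lower (83 in the list, median -0.16, or -0.06 without ERI-R 3 and Control 1). The named rises beside Rab25 were Rab11fip4, an effector of Rab11 (6.79 ± 0.62), and Cdc42ep5, which binds Cdc42 and septins. Cdc42ep5 had 3 counts in Control (ratio 120, 95% exact interval 40.7 to 585, counting error only). Arhgap22, which turns off Rac, was at 6.78, 4.58 and 4.63 CPM in ERI-R and 176, 139 and 120 CPM in Control (-4.70 ± 0.39, edgeR adjusted p = 4.9e-05). Rab3b, of secretory vesicles, changed by -5.97 ± 0.50. Actin-bundling, polarity and apical genes had 22 of 64 tested members higher and 13 lower (76 in the list, 7 lower without Control 1, median 0.04, or 0.23 without ERI-R 3 and Control 1). Myh14, the nonmuscle myosin of epithelial cell borders, was at 54.6, 55.8 and 187 CPM in ERI-R and 0.723, 1.43 and 0.262 CPM in Control (6.82 ± 0.91, edgeR adjusted p = 0.00035). Marveld3, of tight junctions, changed by 6.35 ± 0.80 and Epb41l4b by 5.89 ± 0.72. Epb41l3, of the same band 4.1 family, was at 4.72, 5.80 and 1.26 CPM in ERI-R and 112, 108 and 122 CPM in Control (-4.89 ± 0.42, edgeR adjusted p = 5.6e-05), opposite to Epb41l4b.

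Ion channels had 15 of 44 tested members higher and 12 lower (90 in the list, median 0.26, or 0.10 without ERI-R 3 and Control 1). Kcnk1, a background potassium channel, was at 82.1, 115 and 176 CPM in ERI-R and 0.578, 2.85 and 0.525 CPM in Control (6.83 ± 1.16, edgeR adjusted p = 0.0013). Trpv6, which takes up calcium in epithelia, changed by 6.39 ± 0.95. Piezo2, the touch-sensing channel, was at 7.31, 3.59 and 0.421 CPM in ERI-R and 236, 196 and 199 CPM in Control (-5.91 ± 0.71, edgeR adjusted p = 0.00019). Kcnh1, a potassium channel found in many tumours, changed by -5.16 ± 0.62. Solute carriers had 18 of 63 tested members higher and 18 lower (95 in the list, median -0.27, or -0.15 without ERI-R 3 and Control 1). Slc15a2, which imports small peptides, was at 50.3, 34.9 and 56.1 CPM in ERI-R and 0, 0.839 and 0.350 CPM in Control (7.28 ± 1.10, edgeR adjusted p = 0.00068). Slc5a8, which carries lactate and butyrate, changed by 6.47 ± 0.67. Slc14a1, a urea channel, and Slc9a2, a sodium-proton exchanger, changed by -5.91 ± 0.68 and -6.09 ± 0.58. Aqp1, a water channel, was at 1.83, 0.534 and 0.526 CPM in ERI-R and 58.4, 56.6 and 37.7 CPM in Control, the reverse of Aqp5.

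Mucins and glycosyltransferases had 30 of 55 tested members lower and 10 higher (83 in the list, median -1.15). Galnt15, which starts O-glycans, was at 4.34, 2.06 and 0.736 CPM in ERI-R and 95.2, 89.6 and 95.6 CPM in Control (-5.33 ± 0.49, edgeR adjusted p = 5.9e-05). Chst1, which sulfates keratan, was at 0.533, 0.534 and 0 CPM in ERI-R and 32.5, 19.9 and 17.2 CPM in Control (-5.75 ± 0.65, edgeR adjusted p = 0.00015). St8sia2, which makes polysialic acid on neural adhesion proteins, changed by -5.43 ± 0.84. Fut9, which makes the Lewis x (SSEA-1) sugar, was at 117, 140 and 14.2 CPM in ERI-R and 0.145, 3.27 and 0.350 CPM in Control (6.30 ± 0.81, edgeR adjusted p = 0.00027). It was lowest in ERI-R 3 among the ERI-R libraries, and still above every Control library. St6galnac2, which adds sialic acid to O-glycans, changed by 6.33 ± 0.73. Muc20, a membrane mucin, had 1 count in Control (ratio 415, 95% exact interval 74.1 to 16450, counting error only).

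G protein-coupled receptors had 14 of 63 tested members higher and 21 lower (111 in the list, 13 lower without Control 1, median -0.52). Lgr6, a stem cell marker that binds R-spondin, was at 6.10, 3.05 and 0.421 CPM in ERI-R and 196, 145 and 145 CPM in Control (-5.72 ± 0.66, edgeR adjusted p = 0.00016). Vipr1, the receptor of vasoactive intestinal peptide, was at 21.2, 9.0 and 12.5 CPM in ERI-R and 0.0723, 0.419 and 0.0874 CPM in Control (6.21 ± 0.69, edgeR adjusted p = 0.00014). Adgrg1, an adhesion receptor of brain and muscle, changed by 5.06 ± 0.59. The retinoic acid-induced receptors Gprc5c and Gprc5b went apart, with changes of 4.60 ± 0.82 and -3.12 ± 0.34. The G protein and cyclic nucleotide list had 13 of 59 tested members higher and 17 lower (70 in the list, median -0.43, or -0.25 without ERI-R 3 and Control 1). Rgs16 and Rgs5, which switch G proteins off, changed by -5.21 ± 0.85 and -5.15 ± 0.80, and Gnao1, a G protein alpha subunit of nerve cells, by -5.28 ± 0.49. Adcy8, which makes cyclic AMP, was at 5.33, 7.25 and 5.16 CPM in ERI-R and 0.0723, 0.252 and 0.175 CPM in Control (5.11 ± 0.48, edgeR adjusted p = 6.3e-05), and Pde9a, which breaks down cyclic GMP, changed by 5.56 ± 0.77.

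MAP kinase feedback and immediate early genes had 16 of 43 tested members lower and 3 higher (44 in the list, median -0.96, or -0.48 without ERI-R 3 and Control 1). Dusp5, a phosphatase that holds ERK in the nucleus, was at 13.1, 8.32 and 9.99 CPM in ERI-R and 140, 109 and 81.4 CPM in Control (-3.34 ± 0.33, edgeR adjusted p = 8.3e-05). Fosl1, an AP-1 factor induced by ERK, was at 5.79, 5.57 and 2.10 CPM in ERI-R and 125, 103 and 118 CPM in Control (-4.65 ± 0.41, edgeR adjusted p = 5.7e-05). In both genes every ERI-R library was far below the lowest Control library. Dusp9 changed by -6.21 ± 0.63. Mapk13 (2.64 ± 0.52) and Dusp8, a phosphatase of stress kinases (1.76 ± 0.41), were among those that rose. The TNF and death receptor list had 5 of 27 tested members higher and 6 lower (41 in the list, median -0.36). These shares were 18.5% and 22.2%, against 14.6% and 16.7% of all genes. The higher count was 3 without Control 3, and the lower count was 3 without Control 1. The mouse TRAIL decoy receptors Tnfrsf22 and Tnfrsf23, neighbouring and similar genes whose reads may be shared, changed by -3.89 ± 0.26 and -3.06 ± 0.26. Tnfrsf18, a T cell costimulatory receptor, changed by 4.88 ± 0.73, and Eda, the ligand of skin appendage development, by 4.50 ± 0.70.

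Surface antigens, tetraspanins and Ly6 proteins had 17 of 64 tested members higher and 21 lower (81 in the list, median -0.20, or -0.10 without ERI-R 3 and Control 1). Nt5e, the enzyme CD73 that makes adenosine, was at 40.2, 22.0 and 6.84 CPM in ERI-R and 187, 214 and 269 CPM in Control (-3.51 ± 0.40, edgeR adjusted p = 0.00016). Bcam, a laminin receptor, changed by 3.99 ± 0.33, and Prom2, of membrane protrusions, by 5.59 ± 0.93. S100 and annexin genes had 3 of 23 tested members higher and 7 lower (27 in the list, median -0.12, or -0.39 without ERI-R 3 and Control 1). S100a4, a marker of motile and mesenchymal cells, was at 23.0, 24.3 and 64.5 CPM in ERI-R and 770, 341 and 218 CPM in Control (-3.57 ± 0.43, edgeR adjusted p = 0.00022). Anxa8, of basal and squamous epithelium, was at 65.9, 78.7 and 132 CPM in ERI-R and 3.61, 2.85 and 2.80 CPM in Control (4.84 ± 0.29, edgeR adjusted p = 3.2e-05). The splicing and oncofetal RNA-binding list had 6 of 35 tested members higher and 12 lower (47 in the list, median -0.64, or -0.24 without ERI-R 3 and Control 1). Igf2bp2, which binds Igf2 and other growth mRNAs, was at 38.3, 31.7 and 7.47 CPM in ERI-R and 192, 196 and 182 CPM in Control (-3.04 ± 0.42, edgeR adjusted p = 0.00041). Esrp2, an epithelial splicing factor, changed by 5.01 ± 0.62, and Cpeb1, which controls polyadenylation, by -5.93 ± 0.48.

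Of the metabolic lists, serine, one-carbon, glutamine and polyamine genes had 9 of 45 tested members higher and 10 lower (median -0.42, or -0.12 without ERI-R 3 and Control 1). The higher count was 5 without Control 1 or without Control 3, and the lower count was 5 without Control 1. Cbs, the first enzyme from homocysteine to cysteine, was at 34.8, 22.2 and 67.3 CPM in ERI-R and 0.217, 1.17 and 0.525 CPM in Control (6.03 ± 0.67, edgeR adjusted p = 0.00014). Ass1, which makes argininosuccinate, was at 144, 207 and 282 CPM in ERI-R and 7.06, 30.6 and 14.6 CPM in Control (3.90 ± 0.70, edgeR adjusted p = 0.0018). The groups did not overlap in either gene, which the rule that names them requires. Glul, glutamine synthetase, changed by -2.11 ± 0.29, and Gls2, a glutaminase, by 2.38 ± 0.34. Fatty acid and sphingolipid genes had 8 of 54 tested members higher and 9 lower (65 in the list, median 0.11). These shares, 14.8% and 16.7%, were near those of all genes (14.6% and 16.7%). Sphk1, which makes sphingosine 1-phosphate, changed by 3.24 ± 0.52, and Sgms2, a sphingomyelin synthase, was at 39.2, 22.5 and 4.10 CPM in ERI-R and 185, 226 and 264 CPM in Control (-3.67 ± 0.50, edgeR adjusted p = 0.00038). Eicosanoid and phospholipase genes had 8 of 35 tested members higher and 9 lower (56 in the list, median -0.16, or -0.43 without ERI-R 3 and Control 1). Cbr2, a carbonyl reductase, changed by 4.73 ± 0.81 and Plce1, a Ras-linked phospholipase C, by -5.06 ± 0.43.

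Oxidative phosphorylation subunits had 16 of 61 tested members higher and 0 lower by edgeR (0 lower also at an unadjusted p under 0.05 and by DESeq2; 65 in the list, median 0.87, or 0.42 without ERI-R 3 and Control 1), but the count turned on single libraries. It was 2 without Control 1, 2 without Control 3 and 34 without ERI-R 1, and it was 2 in the libraries with macrophage RNA alone. Their summed level was 4705, 5982 and 19796 CPM in ERI-R and 6329, 5103 and 4338 CPM in Control, so ERI-R 3 alone was above every Control library. Atp5h, a subunit of ATP synthase, was at 164, 250 and 1015 CPM in ERI-R and 96.9, 90.3 and 78.1 CPM in Control (2.09 ± 0.45, edgeR adjusted p = 0.0049), and so was higher in all 3 ERI-R libraries. Cytosolic ribosomal proteins had 3 of 79 tested members higher and 0 lower by edgeR (0 lower also at an unadjusted p under 0.05 and by DESeq2; median 0.46, and -0.26 in the libraries with macrophage RNA alone). The higher count was 1 without Control 1 and 8 without ERI-R 1, and 1 member was lower without ERI-R 3. Their summed level was 33256, 45530 and 199539 CPM in ERI-R, against 46764 to 56736 CPM in Control. The part that the tilt of ERI-R 3 with summed exon length has in these lists was not tested. Rpl21, at 1429, 2119 and 9073 CPM in ERI-R and 674, 714 and 705 CPM in Control, has processed copies elsewhere in the genome, and it lies on chromosome 5 in a stretch described below.

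Cyclins, CDK inhibitors and the retinoblastoma family had 7 of 36 tested members higher and 5 lower (41 in the list, median 0.13, or 0.25 without ERI-R 3 and Control 1). These shares were 19.4% and 13.9%, against 14.6% and 16.7% of all genes. The higher count was 3 without Control 3 and 11 without ERI-R 3. The lower count was 2 without Control 1 or ERI-R 3 and 3 without Control 2, Control 3 or ERI-R 2. Ccnd2, cyclin D2, was at 55.9, 54.6 and 34.4 CPM in ERI-R and 181, 231 and 241 CPM in Control (-2.20 ± 0.20, edgeR adjusted p = 5.9e-05). Cdkn2b, an inhibitor of the kinases that cyclin D drives, was at 11.7, 7.25 and 19.99 CPM in ERI-R and 0, 0.587 and 0.350 CPM in Control (5.87 ± 1.32, edgeR adjusted p = 0.0066). DNA repair and replication genes had 8 of 51 tested members higher (15.7%) and 4 lower (7.8%; 52 in the list, median -0.02, or 0.43 without ERI-R 3 and Control 1). The higher count was 4 without Control 3 and 13 without ERI-R 3, and the lower count was 2 without Control 1 or ERI-R 3. Rad51c, of homologous recombination, changed by 1.47 ± 0.30 and Parp3, of the poly(ADP-ribose) polymerases, by -0.89 ± 0.20. Pms2, of mismatch repair, was at 43.5, 57.5 and 42.9 CPM in ERI-R and 20.8, 19.2 and 16.7 CPM in Control (1.36 ± 0.22, edgeR adjusted p = 0.0010), and it lies on chromosome 5.

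Changes were unevenly placed on the chromosomes. On chromosome 5, 307 of 952 tested genes were higher (32.2%) and 112 lower. On chromosome 19, 129 of 493 were lower (26.2%) and 30 higher, and on chromosome 10, 174 of 674 were lower (25.8%) and 57 higher. Within chromosome 5 the rises sat at both ends. Of 237 tested genes that start in its first 40 Mb, 128 were higher (54.0%) and 23 lower, with a median log2 fold change of 0.96. The rises were uneven there. Between 30 and 40 Mb 80 of 114 genes were higher and 6 lower, while between 10 and 20 Mb 3 of 12 were higher and 6 lower. Of 225 genes that start beyond 130 Mb, 127 were higher (56.4%) and 12 lower (median 1.31). Between 130 and 140 Mb the median was 0.93, or 0.40 in the libraries with macrophage RNA alone. Between 140 and 150 Mb these medians were 1.37 and 1.42. In the middle, 52 of 490 were higher and 77 lower (median -0.06). The median difference in log2(CPM + 1) from the mean of Control in the first 40 Mb was 0.88, 0.88 and 0.81 in ERI-R 1 to 3, and beyond 130 Mb it was 0.96, 0.89 and 1.36, so every ERI-R library showed it. Over the same genes and against the same Control libraries, the group medians in the first 40 Mb were 0.90 for ERI-R, 0.03 for PAC-R and 0.02 for VIN-R, and beyond 130 Mb they were 1.06 for ERI-R, 0.03 for PAC-R and 0.01 for VIN-R. PAC-R and VIN-R, the paclitaxel-resistant and vinorelbine-resistant lines, thus lay near 0 there. The difference between the lines was not tested. On chromosome 14 the genes that start beyond 40 Mb were lower in 100 of 344 cases (median -0.53), and those before it were higher in 38 of 143 (median 0.23). Before 40 Mb, the median difference from the mean of Control in log2(CPM + 1) was 0.19 and 0.22 in ERI-R 1 and 2 and -0.11 in ERI-R 3, and beyond 40 Mb it was -0.28, -0.35 and -0.73 in ERI-R 1 to 3. The cut points were chosen with the values seen, and DNA copy number was not measured in these files.

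**Figure D5:**
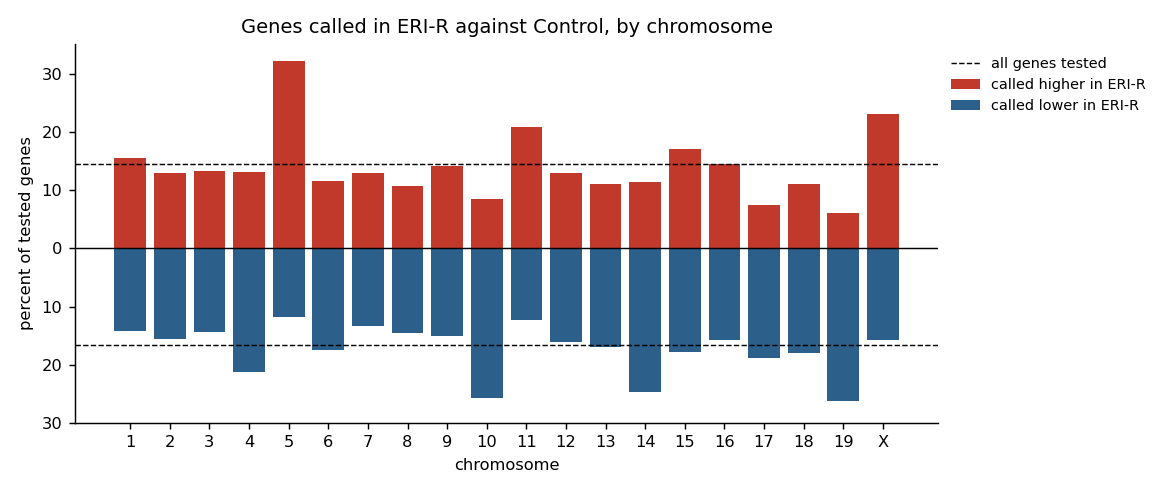
Percent of tested genes called higher (red, above 0) and lower (blue, below 0) in ERI-R on each chromosome, with dashed lines for all genes tested (14.6% and 16.7%). Chromosome 5 has the highest share of rises (32.2%), and chromosomes 10, 14 and 19 have the highest shares of falls.

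Runs of neighbouring tested genes called in 1 direction showed the same stretches. There were 56 runs of 4 or more genes called higher and 44 called lower. The 4 longest, as found in the main fit, all lay on chromosome 5. Each held at least 1 named member that lost its call without 1 library or with no macrophage term. These members were Selenoi, Snx17, Zfp513, Rac1, Usp12 and Pan3. The longest, 13 genes, ran from Tyms to Ost4 with a median log2 fold change of 2.09 and no member under 1.17. It held Tyms, thymidylate synthase, Hadha and Hadhb, the mitochondrial trifunctional protein, Selenoi, Slc35f6, Cenpa, the centromere histone, Dpysl5, Mapre3, which binds growing microtubule ends, Tmem214, Agbl5, which removes glutamate from tubulin, Ost4 and 2 unnamed transcripts. A run of 11 from Gtf3c2 to Zfp512 (median 1.15) held Eif2b4, Snx17, Zfp513, Ppm1g, Nrbp1, Krtcap3, Ift172, Fndc4 and 1 predicted gene. Toward the other end, a run of 11 from Rnf216 to Fam220a (median 1.69) held Rac1, Kdelr2, Daglb, Zdhhc4, Rbak, Zfp12, Zfp316 and 2 unnamed transcripts, and a run of 11 from Usp12 to Slc46a3 (median 2.29) held Rpl21, Rasl11a, Gtf3a, Mtif3, Lnx2, Polr1d, Pan3, Flt1 and Pomp. Rac1, the GTPase of lamellipodia, was at 672, 749 and 1011 CPM in ERI-R and 485, 554 and 430 CPM in Control (0.72 ± 0.23, edgeR adjusted p = 0.037), and it was not called when Control 1, Control 3 or ERI-R 2 was left out. Ift172, of the ciliary transport train, was at 67.7, 44.2 and 44.3 CPM in ERI-R and 28.5, 20.04 and 22.6 CPM in Control (1.15 ± 0.25, edgeR adjusted p = 0.0051).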

How the data were processed

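Per the submitters' processing notes, the tools were RSEM 1.3.2, STAR 2.7.2b, cutadapt 2.4 and bcl2fastq 2.20.0.422, on build GRCm38, and the authors deposited, per library and gene, RSEM expected counts and TPM. The expected counts that the authors deposited are estimates that need not be whole. They were rounded (15.3% of values above 0 changed). TPM as deposited by the authors was used only to compare levels between genes. IDs were named from GENCODE M21 (55480 of 55573).

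Genes were kept with filterByExpr and tested with edgeR 4.0.16 (R 4.3.3): TMM scaling, robust quasi-likelihood fit to all 12 libraries, with terms for group and for macrophage RNA (Lyz2 above 100 CPM), ERI-R minus Control, with calls at an adjusted p (Benjamini-Hochberg, all tested genes) under 0.05. CPM values use the TMM-scaled library size, except Lyz2 in the description of the libraries, which uses the library total. The fit was also run on simulated data, and the outcome is not reported here. The SE given with a log2 fold change is its absolute value divided by the square root of the quasi-likelihood F statistic. It is an approximation, not a fitted standard error. DESeq2 1.42.0 was an alternative. Named are stable genes (called in each fit that leaves out 1 library and with no macrophage term, log2 fold change within 1.5 times, groups not overlapping): the 12 largest each way at 20 CPM or more, and up to 3 each way per list at 5 CPM or more. Also named, with no condition of stability, are up to 8 genes each way with at most 3 counts in 1 group and 10 CPM or more in the other. The members of the 4 longest runs of at least 4 neighbours are named on the same terms. In the lists, genes described elsewhere were passed over in places, and some genes that the rule names are not reported here. The comparison, the 44 gene lists and the 6 cell type marker lists were chosen with earlier results of these data known. Intervals and the floor of 3 counts cover counting error only.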

Additional observations from a re-analysis of the deposited data

How the results depend on the processing

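The number of genes called varied between fits. It was 2076 higher and 2369 lower with the term, 1353 and 1379 with no term, and 1297 and 1323 when the 6 ERI-R and Control libraries were fitted alone. In the libraries with macrophage RNA alone it was 1723 higher and 1541 lower, over all genes that passed the filter in that set. Leaving out 1 library gave 1576 to 2412 higher and 1487 to 2383 lower genes, with the lowest lower count, 1487, without Control 1. The DESeq2 Wald test called 2724 higher and 2627 lower. More genes were higher than lower with total counts alone (2237 and 1834) and without ribosomal protein and mitochondrial counts (2407 and 1995). Of the 243 genes named for size, list or a group near 0, none reversed, and 4121 of their 4129 values in the 17 alternatives kept their call. The calls lost among them were Got1 and Klf2 in the libraries with macrophage RNA alone, Ift172, Ndufa4 and Rpl21 in the 6 libraries, Parp3 in both, and Mia in the DESeq2 Wald test. Of 60 other genes given, members of runs or chosen with their values seen, 953 of 1018 values kept their side of the threshold and 64 lost a call. The 10 that did so without 1 library or with no macrophage term were Il33, Kif4, Krt18, Mfsd9, Pan3, Rac1, Selenoi, Snx17, Usp12 and Zfp513. Esr1, not called, ranged between -0.81 and 0.018 (log2) when 1 library was left out, with the highest, positive value without ERI-R 3. Of 88 counts of list members, 26 moved by more than 1.5 times with no macrophage term. Other scalings shifted the median log2 fold change of all genes by 0.07 (DESeq2 size factors), 0.07 (total counts) and 0.11 (without ribosomal protein and mitochondrial counts), and leaving out ERI-R 3 shifted it by 0.15. Deviations from the group means of same-numbered ERI-R and Control libraries correlated at -0.58, 0.42 and -0.58. The macrophage term was not taken out of these deviations, and ERI-R 3 correlated at 0.61 with Control 1, which also lacks macrophage RNA. The correlations therefore cannot decide whether replicate numbers pair the libraries. With a replicate block 1640 genes were higher and 1902 lower. With 3 libraries a group, of which 1 lacks macrophage RNA, small changes could not be resolved, and genes under about 1 CPM rest on few counts.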

Other observations

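Runs of neighbouring genes outside chromosome 5 held other groups, all chosen with their values seen. On chromosome 1, a run of 6 tested genes called lower (median log2 fold change -5.11) held 4 interleukin receptor genes, Il1rl2, Il1rl1, Il18r1 and Il18rap, followed by Slc9a2 and Mfsd9. Il1rl1, the receptor of interleukin-33, was at 1.45, 1.297 and 0 CPM in ERI-R and 84.5, 51.9 and 34.5 CPM in Control (-5.80 ± 0.74, edgeR adjusted p = 0.00027). Il18rap, a chain of the interleukin-18 receptor, was at 4.72, 2.59 and 0.631 CPM in ERI-R and 151, 81.0 and 81.0 CPM in Control (-5.20 ± 0.59, edgeR adjusted p = 0.00016). In both genes the lowest library was ERI-R 3, which held no macrophage RNA, and the groups did not overlap. Il33, which encodes the ligand of Il1rl1, opened a run of 6 lower genes on chromosome 19 (median -2.14), but its call was not stable. Its log2 fold change was -2.36 over all libraries, -1.44 in the libraries with macrophage RNA alone and -1.19 without Control 1. It was not called in these last 2 fits, nor in the fit with no macrophage term.

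Elsewhere on chromosome 1, a run of 7 genes called higher (median 5.56) included Lamb3, Hsd11b1 and G0s2. Hsd11b1, which regenerates active glucocorticoid, was at 21.9, 14.2 and 18.7 CPM in ERI-R and 0, 0.922 and 0.175 CPM in Control (6.10 ± 1.06, edgeR adjusted p = 0.0016). On chromosome 11, a run of 10 higher genes (median 1.16) held Itgb4 and Llgl2, a polarity gene, at 28.6, 36.4 and 47.3 CPM in ERI-R and 5.56, 4.86 and 4.28 CPM in Control (2.91 ± 0.27, edgeR adjusted p = 5.9e-05).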
